A study of Rattus norvegicus with 6 samples.

Results

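The CCN genes encode a small family of secreted, cysteine-rich matricellular proteins, which sit in the extracellular matrix and signal to cells without forming its structure. The members described are Nov (now named Ccn3), Ctgf (Ccn2), Cyr61 (Ccn1), Wisp1 (Ccn4) and Wisp2 (Ccn5). They were chosen by their family symbols around Nov, which had been seen to fall on knockdown of cyclin Y (CCNY) in these same libraries. The 5 members stand among 17066 genes of the expression table. Only Nov and Ctgf passed the filter on low values, an FPKM (fragments per kilobase of transcript, scaled to the mapped fragments of the library) of at least 1 in 2 or more libraries, which 10188 genes passed. Cyr61, Wisp1 and Wisp2 lay under 1 in all libraries.

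The cells were hippocampal neurons of Sprague-Dawley rat embryos at E18, which received lentivirus at DIV 5 or 6 (days in vitro) and were harvested at DIV 14. The EGFP group received virus with EGFP alone, and the CCNY-WT group virus that overexpresses wild-type CCNY with EGFP. The CCNY-shRNA group received virus with a hairpin against CCNY and EGFP. All 3 groups were infected and carried EGFP, but only CCNY-shRNA carried a hairpin. No group had a control hairpin, so effects of the hairpin itself and of the loss of CCNY cannot be told apart. RNA sequencing gave 2 libraries a group. The labels name no cell type to which the virus was directed, the culture was described as enriched for neurons and repressed for glia, and nothing in the labels says that the 2 libraries of a group came from separate cultures. P-values therefore measure only the spread between these libraries, which may be technical.

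CCN proteins are built of an insulin-like growth factor binding module, a von Willebrand factor type C module, a thrombospondin type module and, in all but Wisp2, a C-terminal cystine knot. Through these modules they bind integrins, heparan sulfate proteoglycans and LRP receptors on the cell surface, and growth factors such as TGF-beta, BMPs and VEGF. Nov also binds Notch1. Ctgf and Cyr61 are textbook targets of the coactivators YAP and TAZ, which act through TEAD transcription factors at the motif GGAATG, and of the SMAD and serum response factor pathways. CCN proteins are best known from connective tissue, vessels and wound repair, and Nov is also made by subsets of neurons.

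The promoters of Ctgf and Cyr61 are shown because the levels of other YAP-TEAD targets are given further on. Both come from the RefSeq promoter table of build GRCr8, a later build than rn4, to which the reads were aligned. Each is the 250 bases before the gene's start, read 5′ to 3′ on the gene's strand, and capitals mark GGAATG or its other strand, CATTCC.
Ctgf, chr1:22624615-22624864, minus strand: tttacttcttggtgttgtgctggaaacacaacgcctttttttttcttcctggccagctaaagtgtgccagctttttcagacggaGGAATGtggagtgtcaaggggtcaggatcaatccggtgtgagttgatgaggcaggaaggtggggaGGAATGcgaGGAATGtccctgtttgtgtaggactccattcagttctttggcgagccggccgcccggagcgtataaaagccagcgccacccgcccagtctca
Cyr61, chr2:237225690-237225939, minus strand: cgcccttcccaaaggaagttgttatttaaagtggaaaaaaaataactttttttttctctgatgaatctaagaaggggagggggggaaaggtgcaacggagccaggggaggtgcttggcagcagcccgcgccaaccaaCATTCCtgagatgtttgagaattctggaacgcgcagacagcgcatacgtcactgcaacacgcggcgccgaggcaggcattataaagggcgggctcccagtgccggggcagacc
The Ctgf window held the motif 3 times, all as GGAATG, beginning between 166 and 92 bases before the start. The Cyr61 window held it 1 time, as CATTCC, 113 bases before the start. Of 33469 promoters in the table, 4037 (12.1%) held the motif on either strand in the same window, and 27 (0.0807%) held it 3 or more times. A match is a description of the letters and does not show a bound site. The table did not list Nov, Wisp1 or Wisp2.

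The targeted gene followed its labels. Ccny stood at 43.1 and 42.3 FPKM in the EGFP libraries, 108 and 109 with CCNY-WT and 5.98 and 6.19 with CCNY-shRNA. The log2 difference from EGFP was 1.35 with CCNY-WT (limma adjusted p = 4.61e-04) and -2.81 with CCNY-shRNA (limma adjusted p = 1.57e-06). Between 9955 and 10002 genes reached 1 FPKM in a library, and 4672 to 5049 were listed at 0. Relative depth, estimated from the steps in low FPKM values and set to 1 in EGFP replicate 1, ranged from 0.818 to 1.33. The microglial markers Aif1 and Cx3cr1, the endothelial marker Cldn5 and the oligodendrocyte factor Sox10 were listed at 0 in every library.

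Nov was the one member of the family expressed at a substantial level, and it was lower in CCNY-shRNA than in either other group. Its FPKM was 38.7 and 43.4 in the EGFP libraries, 39.5 and 36.3 with CCNY-WT, and 25.2 and 24.9 with CCNY-shRNA. Both knockdown libraries lay below all 4 others, while the CCNY-WT and EGFP libraries overlapped. The means were 41.1 ± 3.37, 37.9 ± 2.21 and 25.0 ± 0.211 FPKM (SD, n = 2 each), so the order of levels was EGFP, CCNY-WT, CCNY-shRNA, and EGFP and CCNY-WT did not differ beyond their spread. On log2 of FPKM floored to 1, Nov in CCNY-shRNA differed from EGFP by -0.71 (SE 0.0809), which is 61.0% of the EGFP level. Because Nov was selected on this contrast, the values are a description and no test is given. The libraries of the 2 groups did not overlap for 48.4% of all genes tested, and 78 genes (0.766%) had a log2 difference further below 0 than that of Nov. In bulk RNA, fewer cells of a type and less RNA per cell cannot be told apart.

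**Figure D1:**
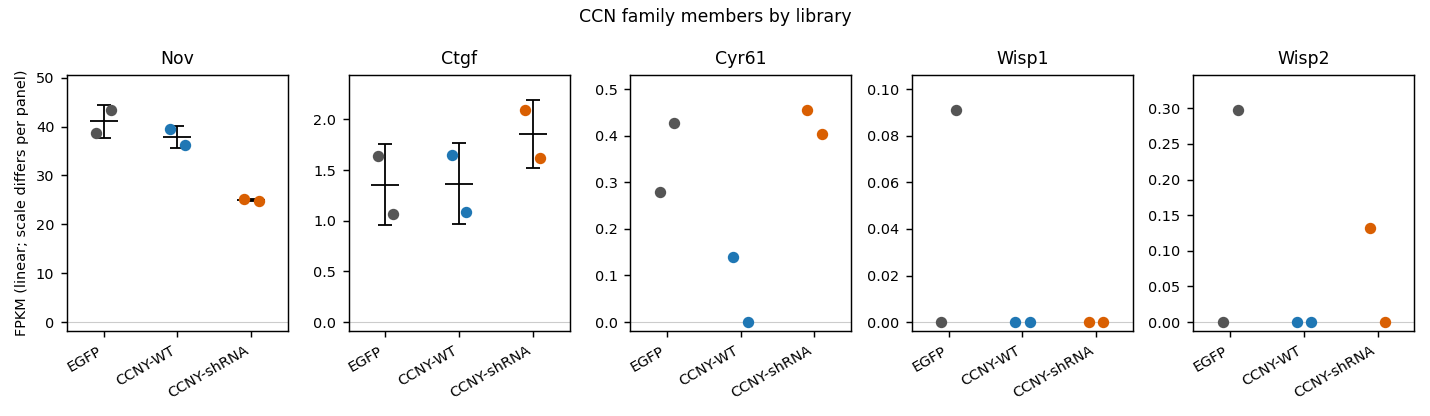
FPKM of the 5 CCN members in each library, by group, on a linear axis from 0 whose scale differs between panels. Points are libraries, and for Nov and Ctgf the long bar is the mean and the whisker the SD of 2 libraries. Nov sits at 24.9 to 25.2 with CCNY-shRNA and at 36.3 or more elsewhere, and the groups of Ctgf overlap.

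In overexpression, which the choice of Nov did not use, no fall or rise of Nov was detected. The log2 difference of CCNY-WT from EGFP was -0.11 (SE 0.0809), with a 95% interval from -0.30 to 0.07 (92.4% of the EGFP level; limma adjusted p = 0.823). Differences within this interval are compatible with the values, which do not show that Nov is alike in both groups. Of all genes tested, 18.2% had a CCNY-WT difference further below 0 than that of Nov. This contrast uses the same EGFP libraries as the knockdown contrast. Nov stood above 84.2% of all genes in its mean EGFP level.

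Ctgf, a profibrotic matrix signal and the best known reporter of YAP activity, was expressed weakly. It measured 1.64 and 1.07 FPKM in EGFP, 1.65 and 1.09 with CCNY-WT, and 2.10 and 1.62 with CCNY-shRNA. The higher EGFP library lay above the lower knockdown library, so all groups overlapped. The means were 1.35 ± 0.400, 1.37 ± 0.397 and 1.86 ± 0.334 FPKM (SD, n = 2 each), and 43.07% of genes had a lower mean in EGFP. The log2 difference from EGFP was 0.48 (SE 0.303) in CCNY-shRNA, given without a test since the family was selected on that contrast. It ranged from 0.17 without EGFP replicate 2 to 0.78 without EGFP replicate 1. In CCNY-WT it was 0.01 (SE 0.303), with a 95% interval from -0.69 to 0.72 (limma adjusted p = 0.996). It turned to -0.29 without CCNY-WT replicate 1 or without EGFP replicate 2.

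The FPKM of low genes are whole multiples of the value of 1 fragment, which gives the smallest number of fragments that can stand behind them. For Ctgf these numbers were 21 and 15 in EGFP, 28 and 13 with CCNY-WT, and 22 and 24 with CCNY-shRNA. Per depth, the ratio to EGFP was 1.05 with CCNY-WT, with an exact 95% interval from 0.657 to 1.70, and 1.36 with CCNY-shRNA, with an interval from 0.857 to 2.16. These intervals cover counting error only. A rise or fall of Ctgf within these bounds is compatible with the fragment numbers at this depth.

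Cyr61, an immediate early matrix signal, was near the limit of detection. It measured 0.280 and 0.427 FPKM in EGFP, 0.141 and a listed 0 with CCNY-WT, and 0.456 and 0.404 with CCNY-shRNA. The CCNY-WT libraries lay below both EGFP libraries, and the knockdown and EGFP libraries overlapped. Across all genes tested, CCNY-WT and EGFP libraries did not overlap for 39.5%. The fragments were 3 and 5 in EGFP, 2 and 0 with CCNY-WT, and 4 and 5 with CCNY-shRNA. A count of 0 in CCNY-WT replicate 2, the less deep of its pair, allows up to 0.300 FPKM, which reaches above the lower EGFP value. The ratio of CCNY-WT to EGFP per depth was 0.231, with an exact 95% counting interval from 0.0239 to 1.16, and that of CCNY-shRNA was 1.19, with an interval from 0.409 to 3.56. With so few fragments no difference in Cyr61 was detected.

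**Figure D2:**
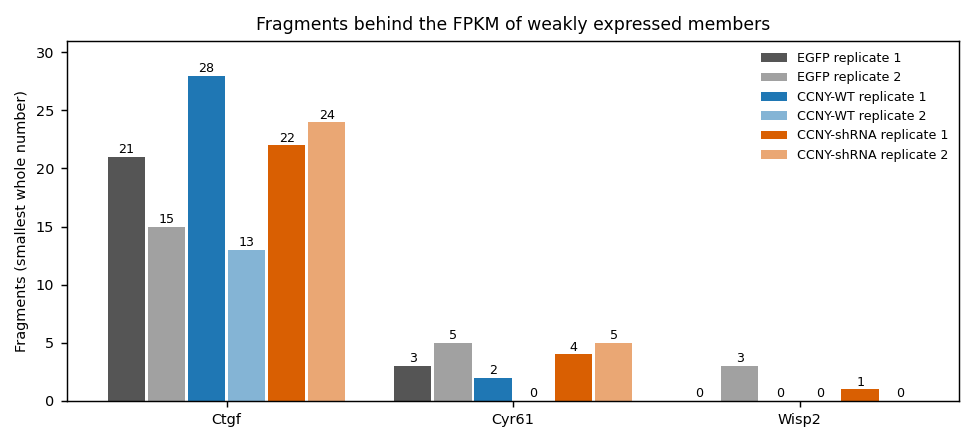
Smallest whole number of fragments that gives the FPKM of Ctgf, Cyr61 and Wisp2 in each of the 6 libraries, not corrected for depth. Bars start at 0 and carry their number. Ctgf rests on 13 to 28 fragments a library, Cyr61 on 0 to 5 and Wisp2 on 0 to 3.

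Wisp1 and Wisp2, both named as genes that respond to Wnt signals, were barely present. Wisp1 was listed at 0 in 5 libraries and at 0.0912 FPKM in EGFP replicate 2. Wisp2 was listed at 0.298 FPKM in EGFP replicate 2, which is 3 fragments, at 0.132 in CCNY-shRNA replicate 1, which is 1 fragment, and at 0 in the other 4 libraries. The 0 values of Wisp2 allow between 0.245 and 0.349 FPKM in EGFP replicate 1, CCNY-shRNA replicate 2 and the CCNY-WT libraries. The single positive library of each gene in EGFP does not set the groups apart. The sixth rat family gene, Wisp3 (Ccn6), which was not among the chosen members, measured 0.721 and 0.462 FPKM in EGFP, 0.816 and 0.463 with CCNY-WT, and 0.528 and 0.563 with CCNY-shRNA, and its groups overlapped.

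Among the 5 members, levels per length fell in the order Nov, Ctgf, Cyr61, Wisp2, Wisp1 in EGFP. Nov, Ctgf and Cyr61 did not overlap there, while the libraries of Cyr61 and Wisp2, and those of Wisp2 and Wisp1, did. Nov exceeded Ctgf by a ratio of mean FPKM of 30.3 in EGFP, 27.7 with CCNY-WT and 13.5 with CCNY-shRNA. Nov made up 95.28% and 95.84% of the summed FPKM of the 5 members in EGFP and 95.67% and 97.1% in CCNY-WT. In CCNY-shRNA its share was 90.37% and 92.47%. The share was lowest in both knockdown libraries, the group in which Nov was selected as low. No member was past the limma threshold of adjusted p 0.05 in CCNY-WT, where 0.00982% of all genes tested passed it, 1 gene, Ccny itself. That count was 0 without either CCNY-WT replicate or without EGFP replicate 2. With an unadjusted p under 0.05, 390 genes (3.83%) were higher and 306 (3%) lower, and neither Nov nor Ctgf was among them.

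The genes most like Nov over the 6 libraries were found by the root mean square difference of log2 FPKM, floored to 1 and centred per gene. The nearest was Fibcd1, a membrane receptor for acetylated groups whose transcript marks CA1 pyramidal neurons, at a difference of 0.0226. Its FPKM was 11.4 and 12.5 in EGFP, 11.2 and 10.4 with CCNY-WT, and 7.20 and 6.95 with CCNY-shRNA. Next came Mpzl1, a cell-surface glycoprotein, at 0.0401, and Megf9, a membrane protein with EGF-like repeats, at 0.0469. Their mean FPKM in EGFP, CCNY-WT and CCNY-shRNA were 35.0, 33.2 and 22.0 for Mpzl1. For Megf9 they were 61.5, 59.1 and 39.4. The sorting receptor Sorl1 (9.32, 8.09 and 5.70 FPKM) followed at 0.0603, and Lrp4 (1.62, 1.48 and 1.02 FPKM), the agrin co-receptor, at 0.0631. The median difference from Nov over all genes tested was 0.339. These 5 genes were picked for following Nov, so their fall in CCNY-shRNA is how they were found, not a further result.

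**Figure D3:**
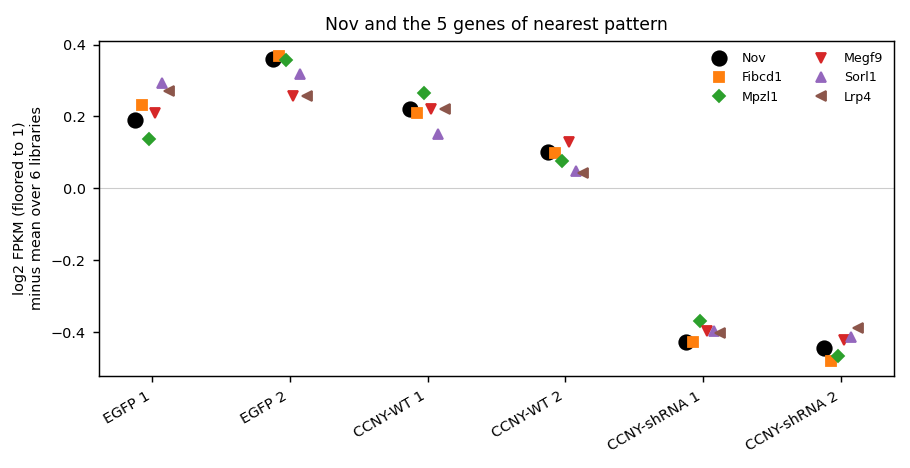
Log2 FPKM, floored to 1, minus each gene's mean over the 6 libraries, for Nov and the 5 genes of smallest root mean square difference from it. Each marker is 1 library, moved sideways for sight. All 6 genes lie near -0.4 in both CCNY-shRNA libraries and above 0 in the other 4.

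Around Ctgf the nearest patterns were looser. The mitochondrial protease Oma1 lay at 0.121 and the lipid-handling membrane protein Tlcd1 at 0.124, against a median of 0.367. Oma1 averaged 1.41, 1.44 and 2.04 FPKM and Tlcd1 2.42, 2.60 and 3.32 in EGFP, CCNY-WT and CCNY-shRNA. Both are weakly expressed, as Ctgf is, and no test applies to genes picked this way.

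The molecules that CCN proteins act through were then counted by role. In CCNY-shRNA, 76 of 10188 genes (0.746%) were past limma's adjusted p of 0.05, 17 higher and 59 lower, with a median log2 difference over all genes of 0.00. With an unadjusted p under 0.05, 937 genes (9.2%) were higher and 954 (9.36%) lower. At the adjusted p of 0.05, the fit without the filter called 2 genes in CCNY-shRNA and that without the trend 1. Fewer than 76 were also called with any 1 of the 6 libraries left out. The counts of 76, 937 and 954 are the scale against which the lists are read, and a gene in more than 1 list counts in each. In CCNY-WT no gene of any list passed the threshold, by limma, and the unadjusted counts of the lists are given where they are above 0.

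Among the CCN receptors, 14 were in the table and 9 tested. One fell in CCNY-shRNA and none rose (1 higher and 3 lower with an unadjusted p under 0.05), and the medians were -0.17 with CCNY-shRNA and -0.11 with CCNY-WT. The gene that fell was Itgb8, an integrin subunit that pairs with the alpha v chain and releases active TGF-beta from its latent complex. It measured 2.76 and 2.47 FPKM in EGFP, 2.18 and 2.48 with CCNY-WT, and 1.02 and 1.12 with CCNY-shRNA. Its knockdown libraries lay below all others, at a log2 difference of -1.29 (SE 0.193; limma adjusted p = 0.0425). None of its values lay under the floor, but the call ended when a constant was added before the log in place of the floor. The difference was -0.81 with 1 added (limma adjusted p = 0.0636) and -1.22 with 0.1 added (limma adjusted p = 0.0652). The most abundant receptor was Itgb1, the common beta integrin chain, at means of 40.1, 42.5 and 45.6 FPKM in EGFP, CCNY-WT and CCNY-shRNA (knockdown log2 difference 0.19, limma adjusted p = 0.206). Igf2r, the mannose-6-phosphate receptor, averaged 26.3, 23.6 and 25.5 FPKM. Notch1, the partner of Nov, named after its values were seen, was low, at means of 1.15, 1.21 and 0.833 FPKM (knockdown log2 difference -0.20, limma adjusted p = 0.658).

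None of the growth factors that CCN proteins bind was past the threshold in either direction, with 8 of 11 tested and 0 with an unadjusted p under 0.05 in both contrasts. Their medians were -0.12 with CCNY-shRNA and -0.03 with CCNY-WT. Vegfa, the vascular growth factor, was the most abundant, at 82.3, 82.0 and 76.4 FPKM in EGFP, CCNY-WT and CCNY-shRNA. Tgfb2 averaged 8.66, 8.41 and 7.15 FPKM, and the knockdown log2 difference was -0.28 (limma adjusted p = 0.280). Bmp7 averaged 2.85, 2.36 and 2.34 FPKM.

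Proteins that share the family's insulin-like growth factor binding module numbered 14, of which 9 were tested. One fell in CCNY-shRNA and none rose (1 higher and 3 lower unadjusted), and the medians were -0.10 with CCNY-shRNA and 0.15 with CCNY-WT. Igfbp4, a secreted inhibitor of IGF signalling, fell from 38.8 and 46.4 FPKM in EGFP to 28.4 and 28.6 with CCNY-shRNA, and stood at 41.6 and 39.6 with CCNY-WT. The log2 difference was -0.58 (SE 0.0906; limma adjusted p = 0.0439). Igfbp2, the most abundant, averaged 59.7, 68.2 and 58.6 FPKM. Igfbp3 averaged 20.0, 23.0 and 19.6 FPKM and was the 1 gene of the list with an unadjusted p under 0.05 in CCNY-WT (limma adjusted p = 0.725).

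Of other matricellular proteins, 14 of 20 were tested, and 1 rose and none fell in CCNY-shRNA (1 higher and 2 lower unadjusted). The medians were -0.11 and 0.01, and 1 gene each way had an unadjusted p under 0.05 in CCNY-WT. Mgp, matrix Gla protein, an inhibitor of calcification and of BMP signalling, measured 4.07 and 5.11 FPKM in EGFP, 8.15 and 8.21 with CCNY-WT, and 14.3 and 21.5 with CCNY-shRNA. Its libraries separated all 3 groups, and the knockdown log2 difference was 1.94 (SE 0.204; limma adjusted p = 0.0144). In CCNY-WT it was 0.84, which did not pass (limma adjusted p = 0.614). Spock2, a brain proteoglycan, was the most abundant at 563, 577 and 550.2 FPKM. The calls of Itgb8, Igfbp4 and Mgp did not outlast the loss of 1 library. They ended whichever library was left out, with the exception of Mgp without CCNY-shRNA replicate 1, and all 3 ended without the filter or the trend.

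**Figure D4:**
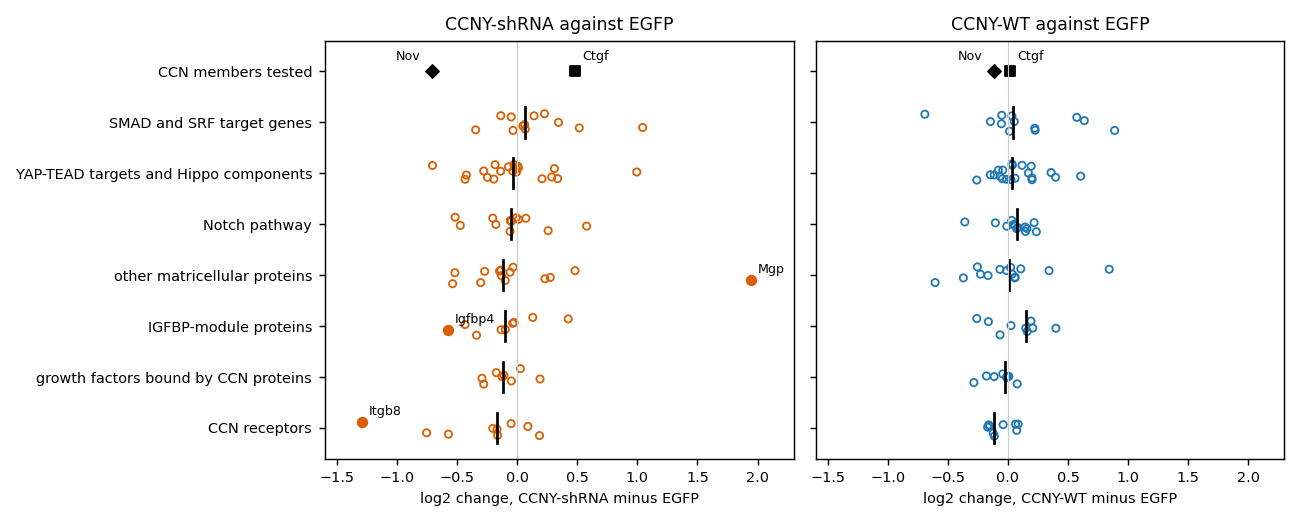
Log2 difference from EGFP of the 2 tested CCN members and of the tested genes of 7 lists around the family, in CCNY-shRNA (left) and CCNY-WT (right). Circles are genes, moved vertically for sight, filled where limma's adjusted p is under 0.05, and the bar is the list's median. The filled genes are Itgb8, Igfbp4 and Mgp in CCNY-shRNA, and there are none in CCNY-WT. Nov and Ctgf have their own symbols, which carry no call.

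The pathways that read or drive CCN genes held no gene past the threshold in CCNY-shRNA. Of YAP-TEAD targets and Hippo components, 20 of 27 were tested, with 2 higher and 3 lower with an unadjusted p under 0.05 and a median of -0.03. In CCNY-WT 2 were higher unadjusted, with a median of 0.04. Nf2 (merlin), an upstream activator of the Hippo kinases, averaged 42.9, 56.5 and 53.2 FPKM in EGFP, CCNY-WT and CCNY-shRNA. It was higher than EGFP in all 4 other libraries but past the threshold in neither contrast (log2 difference 0.31 and limma adjusted p = 0.0829 with CCNY-shRNA, 0.40 and 0.285 with CCNY-WT). The coactivator Yap1, named after its values were seen, measured 1.31 and 1.32 FPKM in EGFP, 2.37 and 1.68 with CCNY-WT, and 2.88 and 2.38 with CCNY-shRNA, and did not pass in the knockdown (limma adjusted p = 0.0889). The other coactivator, TAZ (Wwtr1), likewise chosen after its values were seen, lay the other way, at 1.49 and 2.16 FPKM in EGFP, 1.88 and 1.86 with CCNY-WT, and 1.21 and 0.862 with CCNY-shRNA, and did not pass either (knockdown log2 difference -0.70, limma adjusted p = 0.183). Ankrd1, a standard YAP target beside Ctgf and Cyr61 and likewise named after its values were seen, did not exceed 0.0988 FPKM.

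Of SMAD and SRF target genes, 12 of 18 were tested, 4 were higher and 0 lower with an unadjusted p under 0.05 in CCNY-shRNA, and the medians were 0.07 and 0.04. Tpm1, a tropomyosin, averaged 161, 165 and 189 FPKM (knockdown limma adjusted p = 0.181). Fhl2, a LIM-domain cofactor, averaged 14.8, 17.4 and 18.8 FPKM (knockdown limma adjusted p = 0.155). Of the Notch pathway, 13 of 19 were tested, 2 were higher and 0 lower unadjusted, and the medians were -0.06 and 0.07. Numbl, a Notch inhibitor, was the most abundant, at 44.2, 45.2 and 52.8 FPKM (knockdown limma adjusted p = 0.0908). The Notch target Hey1 measured between 9.33 and 15.9 FPKM, and its groups overlapped.

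Since Nov is made by subsets of neurons, and matrix genes by glia and fibroblasts, markers of each were set beside it. All 20 neuron markers were tested and none rose in CCNY-shRNA, while 2 fell (2 higher and 6 lower unadjusted), with medians of -0.12 and -0.04. Their summed level was 5921 to 5988 FPKM in EGFP, 5806 to 5848 with CCNY-WT and 5718 to 5853 with CCNY-shRNA. Gad2, which makes GABA in inhibitory neurons, fell from 170.4 and 173 FPKM in EGFP to 129.5 and 129 with CCNY-shRNA, and stood at 176 and 181 with CCNY-WT. Its log2 difference was -0.41 (SE 0.0494; limma adjusted p = 0.0226). Gad1 and Slc32a1 also mark inhibitory neurons and are named after their values were seen. Gad1 averaged 189 FPKM in EGFP and 185 with CCNY-shRNA, and Slc32a1 131 and 119. Neither passed in the knockdown (limma adjusted p = 0.813 for Gad1 and 0.332 for Slc32a1). The other marker that fell was Fibcd1, given above as the nearest gene to Nov, so its fall is not a result apart from that likeness. The calls of Gad2 and Fibcd1 were not kept when any 1 library was left out. Slc17a7, the vesicular glutamate transporter of most excitatory neurons and the most abundant marker, averaged 915, 883 and 930.0 FPKM. Slc17a6 ranged from 24.7 to 28.5 FPKM.

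Of 10 astrocyte markers 0 were past the threshold in CCNY-shRNA (limma; 0 higher and 3 lower unadjusted), with medians of -0.16 and 0.05. Their summed level was 546 to 587 FPKM in EGFP, 573 to 579.6 with CCNY-WT and 478 to 549.8 with CCNY-shRNA. The glutamate transporter Slc1a2 averaged 83.3, 82.4 and 66.9 FPKM (knockdown limma adjusted p = 0.0768), and Aldoc, the most abundant, 175, 172 and 162. Sox9 lay between 1.67 and 2.77 FPKM. Of 11 oligodendrocyte lineage markers 6 were tested and 0 passed (0 higher and 1 lower unadjusted), with medians of -0.16 and 0.03. Their sum was 55.2 to 56.0 FPKM in EGFP, 53.1 to 57.7 with CCNY-WT and 47.5 to 49.5 with CCNY-shRNA. Olig1 averaged 12.9 FPKM in EGFP, and Olig2 ranged from 1.59 to 2.31. The sums of neuron and oligodendrocyte markers were lower in both knockdown libraries than in both EGFP libraries. The astrocyte sums of these groups overlapped. With CCNY-WT the neuron sums were also below both EGFP libraries and overlapped those with CCNY-shRNA. Such sums weigh the most abundant markers most and do not single out the neurons that make Nov. For single genes, knockdown and EGFP libraries did not overlap for 48.4% of all genes tested. The part of neurons, astrocytes or oligodendrocytes in the level of Nov was not tested.

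For cells outside the neural lineage, the 10 microglial markers summed to at most 1.467 FPKM in a library, and the 1 that was tested, Cd68, averaged 0.477 FPKM in EGFP and did not pass (medians 0.01 and 0.09). Of 16 vascular, meningeal and fibroblast markers 4 were tested, with 0 past the threshold and 0 with an unadjusted p under 0.05 in both contrasts (limma; medians -0.05 and 0.10). Without Thy1, which neurons also express and which averaged 397, 387 and 372 FPKM, their sum was 68.5 to 77.5 FPKM in EGFP, 79.3 to 79.7 with CCNY-WT and 67.3 to 70.6 with CCNY-shRNA. Most of that sum was Lum, a small proteoglycan, at means of 53.1, 57.9 and 47.5 FPKM. Of 9 cell division genes 3 were tested and 0 passed (0 higher and 1 lower unadjusted in CCNY-shRNA; medians 0.11 and 0.00). Ccnb1 averaged 1.67, 1.74 and 1.11 FPKM.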

How the data were processed

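The authors aligned paired-end reads to rn4 with TopHat and deposited 1 FPKM value per gene and library, computed with Cufflinks. The processing notes name TopHat2 2.0, Bowtie2 2.1.0, SAMtools 0.1.19, Cufflinks 2.2.1 and R 3.1.0. The annotation is not given in the sources used here. The table holds FPKM for 17066 gene symbols and no read counts, so total depth is unknown. Relative depth and the smallest whole numbers of fragments were read from FPKM steps (numbers up to 30, tolerance 0.02 fragments), which were found for 747 of 772 genes (96.8%) with a highest FPKM under 0.3.

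FPKM were floored to 1 and log2-transformed, as in the study. Tests used limma 3.58.1 in R 4.3.3 (lmFit, contrasts.fit, eBayes with a trend) over all 6 libraries and 10188 genes, with Benjamini-Hochberg adjustment and a threshold of 0.05. The floor understates changes of genes near 1. The model was tested on simulated data. Same-numbered libraries were checked for pairing, and no block was used. The members and the 13 gene lists (199 of 227 genes in the table), written from general knowledge, were chosen with earlier results of these data known. Named are all members and Ccny, from each list the most abundant gene in EGFP, the gene of smallest p in each contrast and every gene past the threshold, and the genes nearest to Nov (5) and Ctgf (2). Symbols were matched to the RefSeq table of GRCr8, used for names and promoters (16656 matched, 410 not, all 5 members matched). Intervals of fragment ratios are exact (Clopper-Pearson, conditional on the sum), and a count of 0 was taken to allow 3 fragments. Alternatives covered the log offset, the filter, the scaling, how the spread was estimated, a replicate block and leaving out each library. Python 3.11.15, pandas 2.3.3, numpy 2.4.6, scipy 1.17.1 and matplotlib 3.10.9 were used. Cuffdiff calls, qRT-PCR and raw reads were not analysed here. One gene that the naming rule covers is left out of the text.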

Additional observations from a re-analysis of the deposited data

How the results depend on the processing

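With 2 libraries a group, few calls were stable. The log2 difference of Nov in CCNY-shRNA kept its sign under all alternatives, from -0.80 to -0.63 when 1 library was left out. That of Ctgf ranged from 0.17 to 0.78. Nov in CCNY-WT kept its sign and stayed short of the threshold (limma adjusted p from 0.740 to 1), as did Ctgf (0.886 to 1), whose CCNY-WT difference ranged from -0.29 to 0.32 over the left-out libraries, with the opposite sign without CCNY-WT replicate 1 (-0.29) or EGFP replicate 2 (-0.29).

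Members under an FPKM of 1 have a difference of 0.00 by construction of the floor. With 1 added in place of the floor, the differences in CCNY-shRNA and CCNY-WT were 0.081 and -0.34 for Cyr61, -0.063 and -0.063 for Wisp1, and -0.10 and -0.19 for Wisp2. With 0.1 added they were 0.24 and -1.53 for Cyr61, -0.47 and -0.47 for Wisp1, and -0.39 and -0.996 for Wisp2.

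The 76 genes called in CCNY-shRNA became 2 with no filter, 1 with no trend and between 1 and 7 without 1 library. The 5 list genes called (Itgb8, Igfbp4, Mgp, Gad2 and Fibcd1) became 0 with no filter, 0 with no trend and between 0 and 1 without 1 library. Their adjusted p ranged from 0.00805 to 0.337 over all settings. In CCNY-WT the 1 called gene became 3 with 1 added before the log, 3 with a filter on the mean FPKM and between 0 and 1 without 1 library. The cause of these changes was not tested. Leaving out a library leaves 1 sample in its group, assumed to vary like the others.

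Deviations of same-numbered libraries correlated at 0.0377, 0.0530 and 0.0538. With 2 libraries a group these values give little sign of pairing, but they cannot show that it was absent. With a replicate block 39 genes and 2 list genes (Mgp and Gad2) were called in CCNY-shRNA, the calls of Itgb8, Igfbp4 and Fibcd1 ended (limma adjusted p = 0.0622, 0.0618 and 0.0624), and the differences of Nov and Ctgf were the same.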
